A study of Caenorhabditis elegans with 44 samples.

Results

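The first and the second larval cycle of growing *Caenorhabditis elegans* were compared through their microRNAs (miRNAs). The second cycle was taken as the libraries of 15 to 21 h and the first as those of 8 to 14 h, hours being counted from the feeding of arrested first-stage larvae. These 14 libraries, 7 a cycle, come from a series of 44 hourly small RNA libraries. Both cycles held untreated whole animals of the wild-type strain N2, grown on plates with OP50 bacteria at 25 °C, and the labels give no difference between the groups other than age. Each library was made from 1 harvest of pooled animals, and there were no replicates. The hour within the cycle paired the libraries, 15 h with 8 h, 16 h with 9 h and so on, and every p-value below rests on the scatter between hours of a single time course, in the test of levels on that between the 7 pairs. Of the 437 miRNA strands in the table, 272 had a mean of at least 10 raw counts over the 44 libraries and were tested. They held 99.997% of the counts of the 14 libraries.

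A miRNA hairpin is cut into a 5p and a 3p strand. One of them, the guide, is usually kept by an Argonaute protein and pairs with target messages through its seed, and the other, the passenger, is usually discarded. In *C. elegans*, lin-4 and the let-7 family are the best known regulators of developmental time: they accumulate as larvae grow and repress heterochronic genes, so that cells take on the fates of the next stage. Larval life runs in cycles that each end in a molt, and many transcripts rise and fall once in each cycle.

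Total counts were between 7059421 and 13630998 in the libraries of the second cycle (median 9886656) and between 9984086 and 11380224 in those of the first (median 10513580). Levels are given as normalised counts, for which each library was brought to the same total, 10571268, the mean over the 44 libraries. They are shares of all miRNA reads, so a change is relative to the other strands, and in whole animals fewer cells of a type and less RNA per cell cannot be told apart. The median change over the 272 strands was -0.02 on the log2 scale.

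Many strands differed between the cycles. In the edgeR quasi-likelihood test with the hour of the cycle as a block, 57 of 272 strands (21%) were higher in the second cycle and 63 (23.2%) were lower, at an adjusted p under 0.05. The rises were larger than the falls: 23 strands (8.46%) rose by 1 log2 unit or more and 7 (2.57%) fell by as much. The libraries of the cycles did not overlap for 17 strands that were higher (6.25%) and 19 that were lower (6.99%). Of the 120 called strands, 98 moved the same way in all 7 pairs. Hours next to each other are not independent, and with an assumed correlation of 0.5 between neighbouring pairs, 31 strands were called higher and 28 lower, all 59 of them among the 120. The median correlation measured between 1 pair difference and the next was 0.138, a rough estimate from 7 pairs a strand. Below, position 1 to 7 is the hour within the cycle, and a test without a position leaves out both its libraries.

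Where both strands of a hairpin were called, they mostly moved the same way, but calls of only 1 strand were more common. Of the 102 hairpins with both strands tested, guide and passenger were both called higher in 14 and both called lower in 7, and in 1 the guide was higher and the passenger lower. The guide alone was called in 31 (15 higher, 16 lower) and the passenger alone in 16 (5 higher, 11 lower). Of all 102 guides, 30 were called higher and 23 lower, and of the 102 passengers 19 higher and 19 lower. Neighbouring hairpins, those whose genes lie within 5 kb in the WBcel235 annotation of RefSeq, were taken by their most abundant strand. In 14 of 31 neighbouring pairs both strands were called in the same direction, in 0 in opposite directions, in 9 only 1 was called and in 8 neither. Hairpins in a longer run, such as miR-35 to miR-41, entered more than 1 pair. The 31 pairs are therefore not independent, and no share expected by chance was computed.

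**Figure D1:**
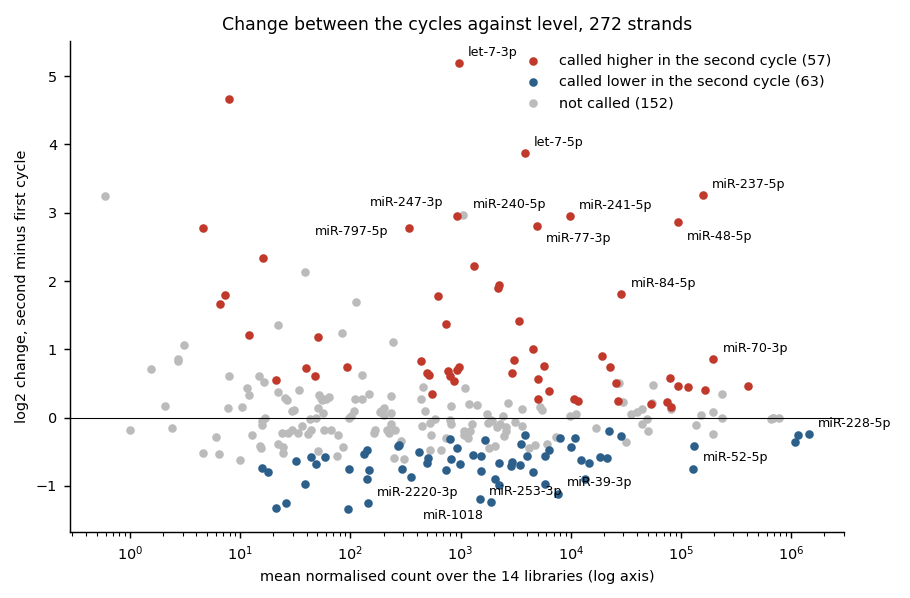
Log2 change between the cycles (second minus first, y axis) against the mean normalised count over the 14 libraries (x axis, log scale) for 272 strands. The 57 strands called higher (red) reach 5.19, while the 63 called lower (blue) go down to -1.34, and 152 were not called (grey).

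The let-7 family, whose members share a seed, was taken as a list of 5 guides, and these were higher. All 5 guides on its list were called higher, against 21% of all strands, with a median change of 2.86, against -0.02 over all strands. Their summed level was between 148795 and 329346 normalised counts in the second cycle and between 20323 and 90699 in the first. As sequences were not compared, the list may lack members. The strand miR-794-5p, whose hairpin neighbours that of miR-795, was not on it. It was lower in each pair and was not called (-0.14).

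The guide let-7-5p, the regulator of the larva-to-adult switch, had from 1138 to 31847 normalised counts in the second cycle (median 1752), against 126 to 360 in the first (median 203). The libraries did not overlap. Within the second cycle it stayed between 1138 and 1809 from 15 to 19 h, had 12108 at 20 h and 31847 at 21 h, while within the first cycle only the library of 14 h was above 212. The change was 3.88 ± 0.57 (SE) on the log2 scale, with an adjusted p of 0.000715 in edgeR.

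The guides miR-48-5p, miR-241-5p and miR-84-5p, which act together at the passage from the second to the third larval stage, rose as well. For miR-48-5p the level was 101612 to 216889 in the second cycle (median 170426), against 7941 to 55618 in the first (median 21539). The change was 2.86 ± 0.18 (adjusted p = 1.1e-05). For miR-241-5p the level was 8394 to 22935 in the second cycle (median 17733) and 770 to 5176 in the first (median 2158), a change of 2.96 ± 0.18 (adjusted p = 9.17e-06). The genes of miR-48 and miR-241 are neighbours in the annotation, within 5 kb of each other, and their changes were close in size. For miR-84-5p the level was 32166 to 53286 in the second cycle (median 44888) and 7952 to 23513 in the first (median 12622), a change of 1.81 ± 0.11 (adjusted p = 9.17e-06). None of these strands had overlapping libraries, and each had its highest level of the first cycle at 14 h, the hour next to the second cycle.

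The fifth guide on the list, miR-795-5p, moved least. It had 5554 ± 368 normalised counts in the second cycle and 4645 ± 861 in the first (mean ± SD, n = 7 libraries each), with overlapping libraries, and rose by 0.28 ± 0.08 (edgeR adjusted p = 0.0263). Its call was lost without position 2 (0.25, adjusted p = 0.0686), position 3 (0.26, adjusted p = 0.0732) or position 4 (0.28, adjusted p = 0.057). It was also lost with TMM factors, which scale libraries on the bulk of the strands instead of on the total (0.18, adjusted p = 0.162).

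The lin-4 family split. Its founder lin-4-5p, which represses lin-14 and lin-28 early in larval life, had 27880 to 37563 normalised counts in the second cycle (median 29775), against 20323 to 32770 in the first (median 26972). The libraries overlapped, and the change of 0.23 ± 0.10 did not pass in edgeR (adjusted p = 0.104). DESeq2 called it (0.24, adjusted p = 0.0202). So did edgeR with DESeq2 size factors (0.24, adjusted p = 0.0415) and over the 28 libraries of 8 to 35 h (0.22, adjusted p = 0.0281). In contrast, miR-237-5p, which shares the lin-4 seed, had 216435 to 378305 in the second cycle (median 281606) and 21554 to 102973 in the first (median 24047). The libraries did not overlap, and the change was 3.26 ± 0.22 (adjusted p = 1.29e-05). Of the first cycle only the library of 14 h exceeded 28395. In the second cycle every library had more of miR-237-5p than of lin-4-5p, while in the first cycle their ranges overlapped, with the lower median for miR-237-5p. Ligation efficiency differs between sequences, so levels of different strands are compared only roughly.

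**Figure D2:**
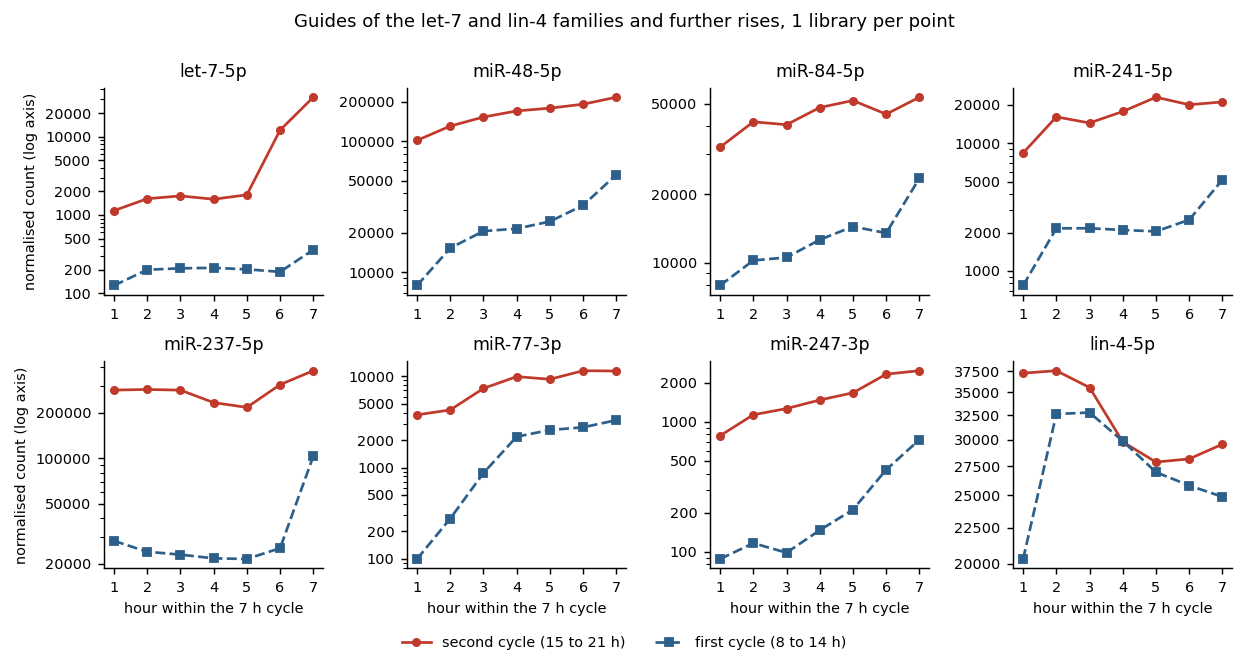
Normalised count (y axis, log scale, its range differs by panel) against the hour within the 7 h cycle for 8 guides, with the second cycle in red and the first in blue, 1 library per point. Every red point lies above every blue point for each guide but lin-4-5p, whose curves overlap, and let-7-5p goes up to 31847 in the last hour of the second cycle.

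Of 6 passengers of these hairpins, those of let-7, miR-48, miR-84, miR-241, miR-237 and lin-4, all but that of lin-4 were also higher. Of all 102 passengers tested, 19 were called higher. The passenger miR-795-3p was not on this list and was not called (-0.09 ± 0.14, edgeR adjusted p = 0.622). The strand let-7-3p had 19.0 to 8655 normalised counts in the second cycle (median 275), against 0.929 to 116 in the first (median 6.14). Its libraries overlapped and it swung strongly within each cycle, and all 7 pairs were higher. The change was 5.19 ± 1.04 (edgeR adjusted p = 0.00363), the largest of the 272 strands. The low end rested on few reads: at 12 h 1 read was counted, with an exact Poisson 95% interval of 0.0 to 5.2 normalised counts that covers counting error only. The passengers miR-241-3p (1.94 ± 0.23) and miR-48-3p (1.90 ± 0.29) rose with libraries that did not overlap. The passenger miR-237-3p rose by 2.22 ± 0.30 with overlapping ranges, which was not called without the pairing by hour (1.54, adjusted p = 0.172), and miR-84-3p by 0.84 ± 0.25 (adjusted p = 0.0224). The call of miR-84-3p was lost without position 1 (0.71), 2 (0.75) or 3 (0.70). The passenger lin-4-3p had 89.2 to 2389 in the second cycle and 79.2 to 3775 in the first, and its change of -0.20 ± 0.56 did not pass (adjusted p = 0.793).

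Outside these families, the rises of 1 log2 unit or more included both strands of a neighbouring pair of hairpins, miR-247 and miR-797. The guide miR-247-3p, on the miR-44 family list, had 782 to 2478 normalised counts in the second cycle (median 1473), against 87.9 to 729 in the first (median 146). The libraries did not overlap, and the change was 2.95 ± 0.23 (edgeR adjusted p = 2.89e-05). Its passenger miR-247-5p, at a mean of 27.3 in the second cycle and 5.15 in the first, rose by 2.34 ± 0.20. The strand miR-797-5p, on the miR-2 family list, had 334 to 850 in the second cycle (median 592) and 38.1 to 267 in the first (median 57.2), a change of 2.77 ± 0.22 (adjusted p = 2.89e-05). Its partner miR-797-3p rose by 1.78 ± 0.24.

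The guide miR-77-3p, 3778 to 11510 normalised counts in the second cycle (median 9271) and 99.5 to 3303 in the first (median 2178), rose by 2.81 ± 0.45 (edgeR adjusted p = 0.0011). Its libraries did not overlap, although it climbed from hour to hour through the first cycle. The partner miR-77-5p rose by 1.37 ± 0.37, with 5 of 7 pairs higher. Its call was lost in edgeR without the pairing by hour (1.08, adjusted p = 0.093) and with correlated pairs (1.57, adjusted p = 0.0802). The guide miR-788-5p had 19599 to 32320 in the second cycle (median 25550), against 6515 to 17601 in the first (median 15612). Its libraries did not overlap, and it rose by 0.90 ± 0.14 (adjusted p = 0.00109). The study picked miR-788-5p and miR-247-3p on these samples as strands that decline later in life, so their shared direction here is a description of 2 chosen strands. The call of miR-788-5p was lost in a fit over the 28 libraries of 8 to 35 h (0.79, adjusted p = 0.18).

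Some further strands were singled out after their values were seen. The abundant guide miR-70-3p had 195872 to 295841 normalised counts in the second cycle (median 262117), against 88035 to 167312 in the first (median 157712). Its libraries did not overlap, and it rose by 0.86 ± 0.06 (edgeR adjusted p = 2.04e-05). The strand miR-34-3p had 2723 to 7816 in the second cycle (median 6367) and 1191 to 5085 in the first (median 4071). It rose in all 7 pairs (edgeR adjusted p = 0.00082). It counts as the guide by a mean only 1.48 times that of miR-34-5p over the 44 libraries. At 8, 9 and 15 h miR-34-5p was the more abundant, with 179, 190 and 113 normalised counts per 100 of miR-34-3p. The strand miR-239b-5p averaged 4748 in the second cycle and 1988 in the first (1.42 ± 0.18).

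The falls were led by strands with less familiar roles. The strand miR-1018 had 834 to 1827 normalised counts in the second cycle (median 1056) and 1938 to 3661 in the first (median 2616). The libraries did not overlap, and it fell by 1.24 on the log2 scale (SE 0.07, edgeR adjusted p = 9.17e-06). The strand miR-2220-3p had 64.1 to 134 in the second cycle and 161 to 258 in the first, a change of -1.25 ± 0.10. The guide miR-253-3p had 752 to 1165 in the second cycle (median 870), against 1466 to 2714 in the first (median 2282), a change of -1.19 ± 0.14. None of these 3 strands had overlapping libraries. Among the other largest falls at a mean of at least 100, miR-44-5p changed by -0.91 ± 0.24, miR-2209a-3p by -0.90 ± 0.14, miR-86-3p by -0.89 ± 0.13 and miR-792-3p by -0.86 ± 0.15. All 7 pairs were lower for each of them, and the libraries overlapped. With correlated pairs the calls of miR-44-5p (adjusted p = 0.124) and miR-792-3p (adjusted p = 0.121) were lost, and that of miR-44-5p was also lost without the pairing by hour (adjusted p = 0.196) and over 28 libraries (adjusted p = 0.0972). The hairpin of miR-2220 neighbours those of miR-4807 and miR-4809, whose strands miR-4807 (-1.34 ± 0.10) and miR-4809-3p (-0.98 ± 0.14), looked up after the values were seen, fell as well.

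The miR-35 family, whose members share a seed and are needed in embryos, was lower. Of its 8 guides, 7 were called lower, against 23.2% of all strands, and 0 higher. Their median change was -0.84, against -0.02 over all strands. Their summed level was 16306 to 70309 normalised counts in the second cycle (median 33138) and 30932 to 94274 in the first (median 52739), so the libraries overlapped, and none of the 8 guides had separate ranges. The clearest member was miR-39-3p, with 2415 to 8466 in the second cycle (median 4925) and 6340 to 14640 in the first (median 10378). All 7 pairs were lower, and the change was -1.11 ± 0.17 (edgeR adjusted p = 0.000888). The guide miR-42-3p changed by -0.99 ± 0.15 and miR-37-3p by -0.97 ± 0.22, again with all 7 pairs lower. The guides miR-36-3p (-0.71 ± 0.20), miR-35-3p (-0.67 ± 0.20) and miR-40-3p (-0.62 ± 0.18) were lower in 6 of 7 pairs, the exception being the pair of 21 h and 14 h. The call of miR-36-3p was lost without position 5 (-0.60, adjusted p = 0.0515). The call of miR-35-3p was lost without position 3 (-0.63), 4 (-0.55) or 5 (-0.57). The call of miR-40-3p was lost without position 1 (-0.57), 3 (-0.60), 4 (-0.53), 5 (-0.56) or 6 (-0.60). The guide miR-38-3p, at 250 to 938 in the second cycle and 469 to 1135 in the first, missed the limit (-0.47 ± 0.23, adjusted p = 0.126), and without position 7 it passed (-0.64, adjusted p = 0.0378). The rarest, miR-41-3p, averaged 12.0 in the second cycle and 30.5 in the first (-1.33 ± 0.28). With an assumed correlation of 0.5 between neighbouring pairs, 2 of the 7 calls were kept, miR-39-3p and also miR-42-3p.

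**Figure D3:**
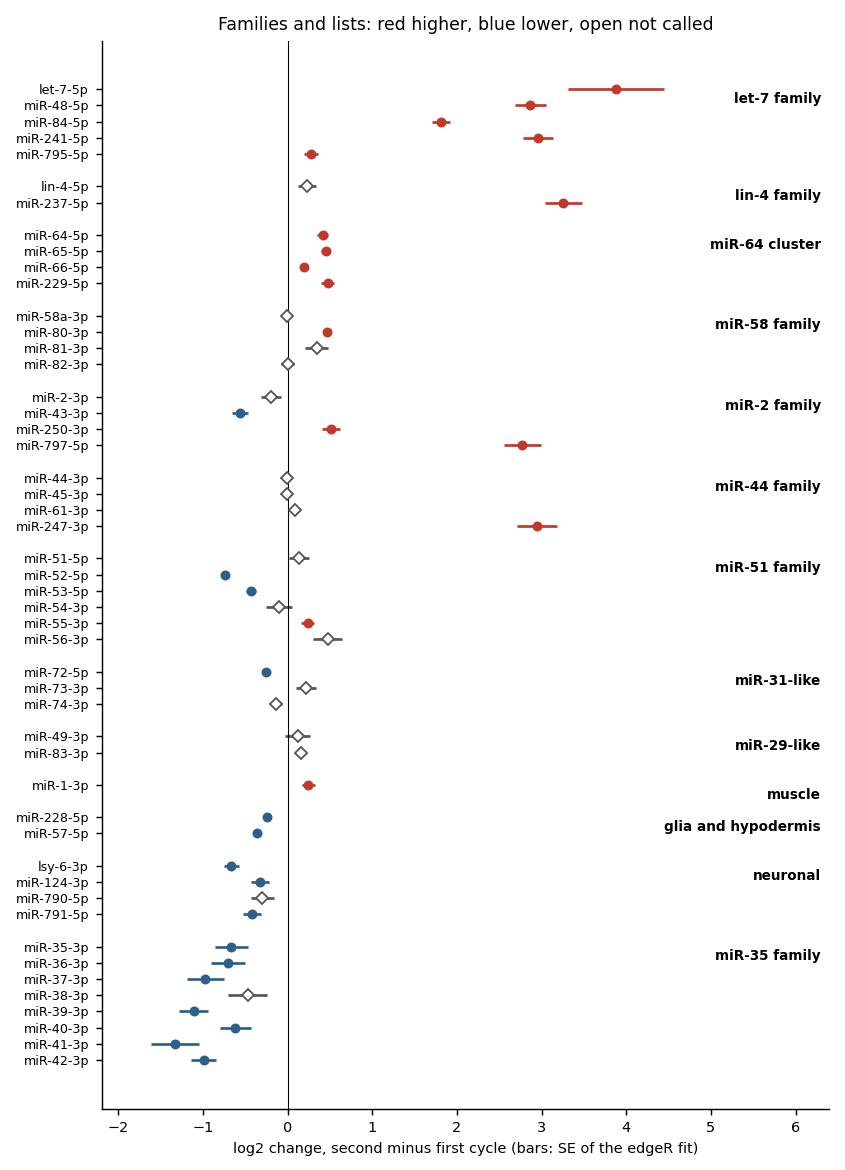
Log2 change between the cycles (second minus first) of each strand on the family and tissue lists. Bars show the SE, derived from the F statistic of the edgeR test. Filled points were called (red higher, blue lower) and open ones were not. The let-7 family reaches 3.88, all 4 guides of the miR-64 cluster lie between 0.20 and 0.47, and the miR-35 family lies between -1.33 and -0.47.

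Several families did not move as a block. In the miR-51 family, which is needed for the attachment of the embryonic pharynx, miR-52-5p and miR-53-5p were lower, miR-55-3p was higher and 3 members were not called, among them miR-51-5p (0.13, adjusted p = 0.391 in edgeR) and miR-54-3p (-0.10, adjusted p = 0.611). The member with the highest mean in both cycles, miR-52-5p, had 75258 to 155260 normalised counts in the second cycle (median 92161) and 123732 to 249502 in the first (median 157299). It fell in all 7 pairs, by 0.75 on the log2 scale (SE 0.05, edgeR adjusted p = 9.17e-06), with overlapping ranges. The guide miR-53-5p changed by -0.44 ± 0.06. The rise of miR-55-3p was small (0.24 ± 0.08, adjusted p = 0.0407) and its call was lost with TMM factors (0.14) and without position 3 (0.25), 4 (0.23), 5 (0.21), 6 (0.22) or 7 (0.18). Its neighbour miR-56-3p did not pass (0.47 ± 0.17, adjusted p = 0.0552), but did so without position 1 (0.64, adjusted p = 0.00313). The family summed to 325714 to 473411 in the second cycle and 312122 to 536047 in the first.

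The miR-58 family is related to bantam of insects and among the most abundant miRNAs of the worm. Of the guides on its list, only miR-80-3p was called. It had 404258 to 554527 normalised counts in the second cycle (median 465115) and 305920 to 452705 in the first (median 314385), a change of 0.47 ± 0.05 (edgeR adjusted p = 0.000184). Its relatives miR-58a-3p (-0.01 ± 0.06) and miR-82-3p (0.00 ± 0.08) had changes close to 0, and miR-81-3p did not pass (0.34 ± 0.13, adjusted p = 0.071). Without position 6, miR-81-3p passed (0.45, adjusted p = 0.0126). The rare strand miR-58c, looked up after the values were seen, was not on this list. It was higher in each pair, by 0.34 to 1.49 on the log2 scale with 8 added. Few reads stand behind it, at most 13 in a library of the second cycle and 5 in one of the first. The gene of miR-238, which neighbours that of miR-80, gave a guide that also rose, miR-238-3p (0.58 ± 0.10), looked up after the values were seen.

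All 4 guides of the miR-64 cluster, neighbouring hairpins that form a family of their own, were higher, against 21% of all strands. Together they had 412207 to 544325 normalised counts in the second cycle (median 514176), against 336157 to 394079 in the first (median 367800). Of the 4, miR-65-5p had separate ranges (106964 to 154992 in the second cycle, 88757 to 106390 in the first) and rose by 0.45 ± 0.05 (edgeR adjusted p = 0.000327). The others rose by 0.47 ± 0.08 (miR-229-5p), 0.41 ± 0.07 (miR-64-5p) and 0.20 ± 0.04 (miR-66-5p). The call of miR-66-5p was lost with TMM factors (0.10, adjusted p = 0.132), and with correlated pairs 1 of the 4 calls was kept (miR-65-5p, adjusted p = 0.034).

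Of the miR-44 family, the guide miR-247-3p described above was the only one called. The changes of miR-44-3p and of miR-45-3p were both -0.01 ± 0.06. Their pair differences were close at each position, as at position 6 (0.27 for both). The sequences were not compared here. Reads that match both may be split between them, so their values are uncertain and are not 2 independent results. The guide miR-61-3p, a regulator of vulval cell fate, changed by 0.08 ± 0.06. In the miR-2 family list, miR-250-3p rose by 0.51 ± 0.11, miR-43-3p fell by 0.56 on the log2 scale (SE 0.10) with separate ranges (1038 to 1415 in the second cycle, 1521 to 2125 in the first), and miR-2-3p did not pass (-0.20 ± 0.12, adjusted p = 0.193 in edgeR), although it did without position 2 (-0.29, adjusted p = 0.0423). Of the relatives of mammalian miR-31, miR-72-5p was among the 5 most abundant strands, with 994238 to 1140740 in the second cycle and 1210060 to 1419030 in the first. These ranges did not overlap, with a change of -0.26 ± 0.03 that was not called with correlated pairs (-0.26, adjusted p = 0.112). The guides miR-73-3p (0.21 ± 0.12) and miR-74-3p (-0.14 ± 0.07) did not pass, and neither did the relatives of miR-29, miR-49-3p (0.12 ± 0.15) and miR-83-3p (0.15 ± 0.07). The last passed without position 1 (0.19, adjusted p = 0.0324).

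Of the strands known from single tissues, 4 were neuronal. Of these, 3 were lower, against 23.2% of all strands, and none was higher, with a median change of -0.38, against -0.02 over all strands. Their sum was 3913 to 4953 normalised counts in the second cycle, against 5022 to 7489 in the first. The strand lsy-6-3p, which sets the left-right difference of a pair of taste neurons, had 1473 to 2165 in the second cycle (median 1721) and 2151 to 3039 in the first (median 2800), and fell by 0.67 on the log2 scale (SE 0.09, edgeR adjusted p = 0.00045). The guides miR-791-5p (-0.42 ± 0.11) and miR-124-3p (-0.33 ± 0.10) fell by less, and with correlated pairs neither was called (adjusted p = 0.207 for miR-791-5p and 0.377 for miR-124-3p). For miR-124-3p the call was lost without position 2 (-0.29), 3 (-0.33), 4 (-0.27), 5 (-0.32) or 7 (-0.32). The guide miR-790-5p (-0.30 ± 0.13, adjusted p = 0.0964) passed without position 7 (-0.39, adjusted p = 0.0378).

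The muscle guide miR-1-3p averaged 12527 ± 617 normalised counts in the second cycle and 10694 ± 1514 in the first (SD, n = 7 libraries), and rose by 0.24 ± 0.08 (edgeR adjusted p = 0.0305). Its call was lost without position 3 (0.24), 4 (0.26), 5 (0.25) or 6 (0.24), and with TMM factors (0.15). Of the strands of glia and hypodermis, miR-228-5p, the most abundant strand of the 14 libraries, had 1097750 to 1490960 in the second cycle (median 1366640) and 1392390 to 1869130 in the first (median 1588810). It fell by 0.24 on the log2 scale (SE 0.05, adjusted p = 0.0028), a call lost with correlated pairs (adjusted p = 0.2) and over 28 libraries (adjusted p = 0.0549). The guide miR-57-5p, which acts in the patterning of the tail, fell by 0.36 (SE 0.04). All 7 pairs were lower for both.

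Guide and passenger of a hairpin come from 1 precursor, and their ratio does not depend on the scaling of libraries. It was tested in edgeR for the 102 hairpins with both strands tested, with the library as a factor. In the second cycle 19 hairpins (18.6%) had shifted toward the guide and 4 (3.92%) toward the passenger, and the median change of the ratio over all 102 was -0.14 on the log2 scale. Among the 19, the guide alone was called higher in 3, both strands were called higher in 5, and the passenger alone was called lower in 8. The count was smaller with earlier windows: with 14 to 20 h set against 7 to 13 h, 8 of these hairpins were called.

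Of the listed hairpins of the let-7 and lin-4 families, those of miR-237, miR-241, miR-48 and miR-84 had shifted toward the guide. Those of let-7, lin-4 and miR-795 were not called. For miR-237 the passenger had 0.217 to 1.30 normalised counts per 100 of the guide in the second cycle (median 0.363), against 0.590 to 3.18 in the first (median 0.693), and all 7 pairs were lower. The log2 ratio changed by -1.04 ± 0.17 (edgeR adjusted p = 0.00561). For miR-241 the passenger had 12.1 to 43.9 per 100 in the second cycle (median 20.0) and 25.1 to 82.4 in the first (median 35.9), a change of -1.02 ± 0.18. The hairpins of miR-48 (-0.97 ± 0.18) and miR-84 (-0.96 ± 0.19) moved by similar amounts, with all 7 pairs lower. With the earlier windows miR-241 and miR-48 were still called, while miR-237 and miR-84 were not. The ratio of let-7 was 1.19 to 33.2 in the second cycle and 0.459 to 32.1 in the first, and it was lower in 3 of 7 pairs (0.91 ± 0.62, adjusted p = 0.314). The ratio changed by -0.34 ± 0.53 for lin-4 (adjusted p = 0.612) and by -0.36 ± 0.13 for miR-795 (adjusted p = 0.0775).

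In the hairpins of miR-86 and miR-81 the passenger fell and the guide was not called. The passenger miR-86-3p had 16.8 to 32.8 normalised counts per 100 of miR-86-5p in the second cycle (median 20.6), against 28.5 to 57.2 in the first (median 46.8), a change of -0.97 ± 0.16, and the guide changed by 0.08 ± 0.08. For miR-81 the passenger had 0.0891 to 0.373 per 100 in the second cycle and 0.284 to 0.751 in the first (-1.11 ± 0.21). Its guide miR-81-3p, though not called, changed by 0.34. The fall of the passenger miR-81-5p was not called with the earlier windows (-0.65, edgeR adjusted p = 0.0799). Nor was it with correlated pairs (-0.63, adjusted p = 0.284). For miR-77, whose strands both rose, the ratio was 6.23 to 23.7 in the second cycle and 9.28 to 97.9 in the first, the largest change in size among the called hairpins (-1.51 ± 0.35). The ratios of miR-86, miR-81 and miR-77 were called with each pair left out and with the earlier windows.

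Of the 4 hairpins that moved the other way, miR-797 and miR-784 moved most. The passenger miR-797-5p had 47.3 to 78.7 per 100 of miR-797-3p in the second cycle (median 64.0), against 15.5 to 51.7 in the first (median 31.2), and the ratio changed by 0.99 ± 0.18 (edgeR adjusted p = 0.00561). All 7 pairs were higher. For miR-784 the ratio changed by 1.43 ± 0.33, with means of 17.1 in the second cycle and 7.12 in the first for its passenger, so few reads stand behind it. The hairpins of miR-52 (0.45 ± 0.11) and miR-61 (0.66 ± 0.19), named to complete the 4 once their values were seen, changed by less. The call of miR-61 was lost when some positions were left out, with the highest adjusted p, 0.0954, without position 4. The shift of miR-240 toward the guide (-1.31 ± 0.38) was lost in the same way, with 0.0888 without position 5.

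**Figure D4:**
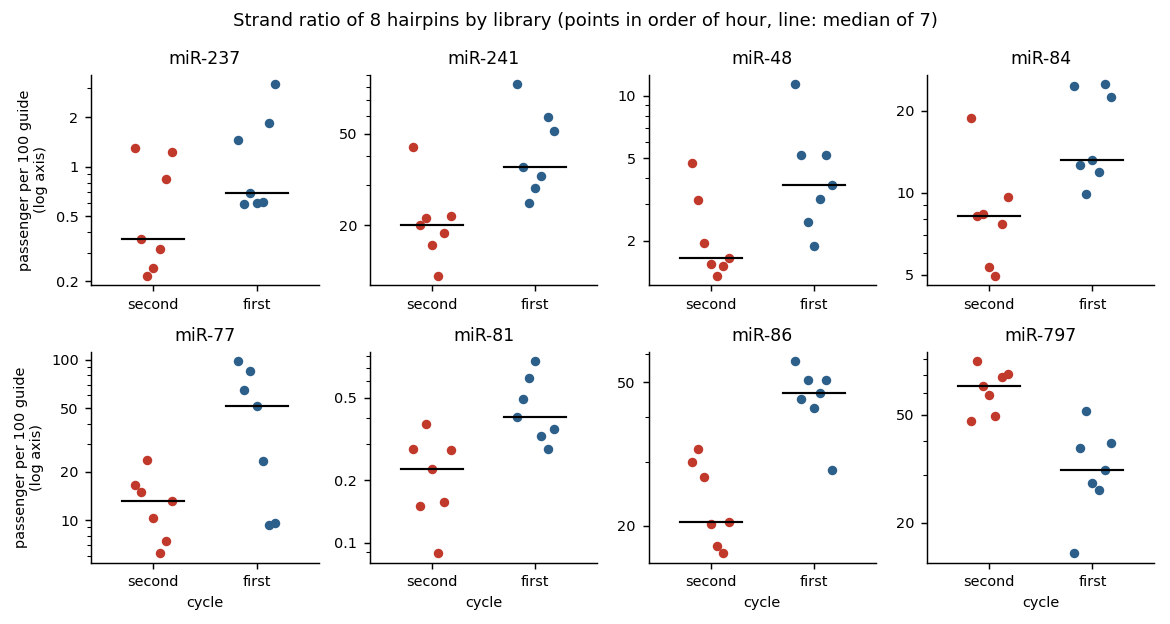
Normalised counts of the passenger per 100 of the guide (y axis, log scale, its range differs by panel) in the 7 libraries of the second cycle (red, left) and the 7 of the first (blue, right) for 8 hairpins, with the median as a line. The medians of the second cycle are lower for 7 hairpins, while for miR-797 the median is 64.0 in the second cycle and 31.2 in the first.

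A step between the cycles can hold through the whole cycle or build up within it. A model with a line in the hour of the cycle called 21 strands (7.72%) whose difference between the cycles changed through the cycle, 9 with a positive slope, that is, moving up in the second cycle relative to the first, and 12 with a negative slope. The hairpins of miR-240 and miR-786, neighbours in the annotation, led the list. The guide miR-240-5p had hourly levels of 43.8, 61.5, 350, 1062, 1995, 4135 and 6554 normalised counts in the second cycle, whereas it stayed between 39.1 and 130 in the first cycle. The difference grew by 1.53 ± 0.11 log2 units an hour (edgeR adjusted p = 9.38e-05). Its passenger miR-240-3p, 17.1 to 595 in the second cycle and 11.1 to 63.5 in the first, grew by 1.16 ± 0.08 an hour. The guide miR-786-3p, which acts in the intestine in the timing of defecation and was singled out after its values were seen, had 6.42 to 227 in the second cycle and 4.11 to 14.8 in the first (1.13 ± 0.08 an hour). These 3 strands were below the first cycle in the pairs of 15 h and 16 h, and the test of levels did not call them (adjusted p = 0.105 for miR-240-5p, 0.152 for miR-240-3p and 0.0595 for miR-786-3p). Without position 1 it called miR-240-5p (3.73, adjusted p = 0.0449). DESeq2 called miR-240-5p (3.01, adjusted p = 0.00307) and miR-240-3p (1.63, adjusted p = 0.0425), and so did edgeR without the pairing by hour (adjusted p = 0.00299 for miR-240-5p and 0.0158 for miR-240-3p). The rare passenger miR-786-5p, at a mean of 15.4 in the second cycle and 0.426 in the first, was called higher with 5 of 7 pairs higher.

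The rare strand miR-2221, singled out after its values were seen, had 14.7 to 39.6 normalised counts in the second cycle and 0 to 61.7 in the first, where its libraries of 8 h and 9 h held no read, and a fitted slope of -1.48 ± 0.22 (adjusted p = 0.00876) that rests on few reads.

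Among the other named strands the slopes were smaller in size. The difference of miR-250-3p grew by 0.14 ± 0.02 log2 units an hour and that of miR-56-3p by 0.23 ± 0.04. That of miR-48-5p shrank, with a slope of -0.22 ± 0.04 (edgeR adjusted p = 0.0126), and the strand climbed from hour to hour in both cycles. This call was lost without position 1 and without position 7, with an adjusted p of up to 0.0704. The guide miR-77-3p had a slope of -0.54 ± 0.10 (adjusted p = 0.015), lost without position 1 (adjusted p = 0.0565). The passengers miR-84-3p (-0.32 ± 0.05) and miR-229-3p (-0.20 ± 0.03) and the guide miR-230-5p (-0.29 ± 0.04) also had negative slopes. For miR-230-5p the level at the start of the cycle was 30707 at 15 h, against 12775 at 8 h, while near its end it was 35485 at 20 h, against 47186 at 13 h.

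Swings within the cycle were wide in both cycles for the guides known for them. The guide miR-235-3p, a relative of mammalian miR-92, peaked at 18 h in the second cycle with 330413 normalised counts and at 11 h in the first with 387925, and its lowest levels were at 15 h (34095) and 8 h (31293). The guide miR-71-5p, known for a role in lifespan, peaked at 20 h (69938) and 13 h (93893), with its troughs at 16 h (13571) and 9 h (14383). Neither differed in mean level in edgeR (-0.24 ± 0.25, adjusted p = 0.45, and -0.02 ± 0.19, adjusted p = 0.931). The study chose this pair for its rhythm on these samples. Among 13 strands with a range of at least 4-fold in both cycles and a mean of at least 100, picked after their values were seen, the peaks were exactly 7 h apart in 9 and the troughs in 4. The troughs of the other 9 were less than 7 h apart. A peak at the edge of a window, as at 8 h or 21 h, may lie outside it.

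A test of the cosine and sine terms called 25 strands (9.19%) in which these terms differed between the cycles. Its model held 1 slope in time for both cycles, so it cannot tell a changed rhythm from a climb within 1 cycle only. With 1 pair left out the count was between 0, without position 5, and 53, without position 1. Without position 5, 55 strands had an unadjusted p under 0.05 in edgeR and DESeq2 called 33. None of the 25 was called with each pair left out, so the strands are given here by their values. The passenger miR-71-3p had a flatter course in the second cycle, with its highest level 2.19 times its lowest, against 6.52 times in the first, and its highest level came at 18 h and 12 h. Named guides of the miR-35 family had a wider range in the second cycle. For miR-37-3p the highest level was 4.10 times the lowest, at 19 h, against 2.41 times in the first cycle, where the lowest was at 14 h. For miR-39-3p this ratio was 3.51 in the second cycle and 2.31 in the first, and for miR-36-3p it was 3.79 in the second cycle and 2.07 in the first.

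**Figure D5:**
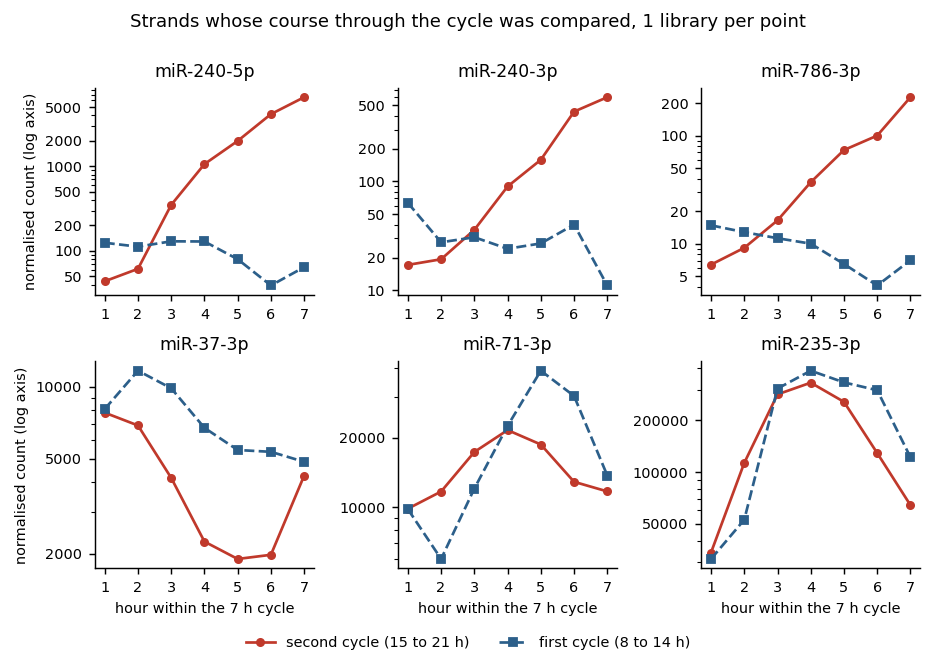
Normalised count (y axis, log scale, its range differs by panel) against the hour within the 7 h cycle, with the second cycle in red and the first in blue, 1 library per point. In the second cycle miR-240-5p, miR-240-3p and miR-786-3p climb to 6554, 595 and 227, miR-37-3p has its trough at 1898, and both courses of miR-235-3p peak in the fourth hour.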

How the data were processed

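The authors made small RNA libraries from whole animals, aligned trimmed reads to ce10 with Bowtie through QuasR, and deposited raw counts per mature strand. A read counted when its first base lay at most 3 bp from the annotated 5′ end. They also deposited log2 values of the counts scaled to the mean total with 8 added, which matched the counts within 0.0005 and served only for that check. Mature sequences were not used here. Tests used R 4.3.3 with edgeR 4.0.16 (quasi-likelihood, library totals as offsets, Benjamini-Hochberg adjustment over all strands or hairpins tested). The level test had the hour of the cycle as a factor and 6 residual degrees of freedom, the ratio test 6, the step test 5 and the rhythm test 7. Alternatives were run with DESeq2 1.42.0 and limma 3.58.1. The edgeR tests of levels, ratios, steps and rhythms and the limma test of levels were tried on simulated data. The DESeq2 tests, the other scalings and the fit with correlated pairs were not. The guide is the strand with the higher mean over 44 libraries. Intervals are exact Poisson. Each SE is the size of the log2 change divided by the square root of its edgeR F statistic. Genes were called neighbours from the WBcel235 annotation, in which 150 of 170 hairpins were matched by name.

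Members, lists and tests were chosen with earlier results of these data known. Named strands were the 10 largest rises and falls (mean of at least 100 normalised counts, all 7 pairs alike) with their partners, all list members, the 5 most abundant, the 6 largest changes of ratio, and the 6 smallest p-values of the step and rhythm tests. Others are marked as chosen after their values were seen. Position 1 to 7 is the hour within the cycle, and leaving 1 out removes both its libraries.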

Additional observations from a re-analysis of the deposited data

Results flagged for a closer look

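In 84 groups of 7 values (the pair differences of 82 named strands and the totals of both cycles), 8 held a value set apart from the rest by Dixon's test, and chance gives about 1 in 20. On the log2 scale with 8 added, the pair of 21 h and 14 h stood apart for miR-237-5p (1.88, median of the 7 pairs 3.42), miR-84-5p (1.18, median 1.93) and miR-2209a-3p (-0.0451, median -0.92). The pair of 15 h and 8 h stood apart for lin-4-5p (0.87, median 0.13) and miR-1-3p (0.65, median 0.20). The pair of 20 h and 13 h stood apart for miR-58a-3p (-0.33, median 0.02), miR-82-3p (-0.49, median 0.05) and lin-4-3p (3.40, median -0.66).

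The cosine and sine terms differed between the cycles at an edgeR adjusted p under 0.05 for 18 named strands. They are given here by the length of the vector of these differences on the log2 scale, which has no sign. It holds changes of phase and of amplitude. Because the model shared the slope in time between the cycles, it also holds a climb within only the second cycle, as in miR-240-5p. It was largest for let-7-3p (3.75), miR-240-5p (3.74), let-7-5p (1.70), miR-39-5p (1.55) and miR-77-5p (1.39). It was 0.99 for miR-71-3p, 0.97 for miR-48-3p, 0.96 for miR-42-5p, 0.86 for miR-38-3p, 0.85 for miR-797-3p, 0.84 for miR-44-5p, 0.79 for miR-37-3p, 0.78 for miR-230-5p, 0.76 for miR-247-3p, 0.72 for miR-36-3p, 0.61 for miR-39-3p, 0.48 for miR-81-3p and 0.46 for miR-86-3p. Each of these calls was lost with some pair left out.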

How the results depend on the processing

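In the test of levels no called named strand turned its direction under the settings run for single strands (the fit of 16 to 22 h paired with 8 to 14 h gave counts only), and 29 of the 51 called named strands stayed called with correlated pairs, 43 with each pair left out in turn and 47 with TMM factors. TMM factors gave 49 strands higher and 79 lower, with a median change of -0.11. Without the block on the hour of the cycle 47 were higher and 52 lower, and 93 of the 120 strands were shared. The counts moved by over 1.5 times as follows, and the cause was not tested. Correlated pairs gave 31 higher and 28 lower. Positions 1, 3, 5 and 7 alone gave 34 lower, and positions 2, 4 and 6 alone gave 22 higher and 17 lower, with fewer libraries in both. A limit of 1 log2 unit gave 23 and 7. With 14 to 20 h against 7 to 13 h, 8 ratios and 38 steps were called, and with 16 to 22 h against 9 to 15 h, 43 rhythms. The DESeq2 test called 43 steps and 45 rhythms. With pairs left out in turn, 51 to 60 strands were higher, 50 to 69 lower, 15 to 24 ratios and 12 to 18 steps were called, and 0 to 53 rhythms. With single libraries left out, 4 (without 18 h) to 42 (without 14 h) rhythms were called. At an unadjusted p under 0.05 edgeR had 65 rhythms. Strands at few counts, such as let-7-3p in the first cycle, are limited by depth.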
